A study of Mus musculus with 14 samples.

Results

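The genes described here encode enzymes of the tricarboxylic acid (TCA) cycle and the subunits of complex II, which joins the cycle to the respiratory chain. The 10 genes were taken by name: the TCA cycle enzymes Cs, Idh3a, Idh3b, Idh3g, Dlst and Mdh2, and the complex II subunits Sdha, Sdhb, Sdhc and Sdhd. They were chosen with earlier results of these data known. All 10 were found in both deposited count tables, which together list 18507 genes, 16196 of them in both tables.

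RNA was sequenced from mouse oocytes that lacked Mff, the outer-membrane adaptor that recruits the fission GTPase DRP1 to mitochondria, and from control oocytes. Every animal carried the floxed Mff allele (Mff fl/fl). The knockouts (CKO) also carried Gdf9-Cre, whose promoter is active in oocytes from an early stage of follicle growth, and the controls (WT) had no Cre. Oocytes were taken at the germinal vesicle stage (GV, arrested in prophase of the first meiotic division) and after ovulation, when maturation has taken place. At the GV stage 4 WT and 4 CKO libraries were sequenced, and after ovulation 3 of each genotype. The protocol speaks of single-cell samples, but the sources used here do not give the age of the mice, the number of oocytes or animals behind a library, or whether replicates came from separate animals. The p-values below therefore measure only the spread between these libraries, which may be technical.

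In the TCA cycle, citrate synthase (CS) condenses acetyl-CoA with oxaloacetate, isocitrate dehydrogenase 3 (IDH3) and the 2-oxoglutarate dehydrogenase complex carry out the oxidative decarboxylations, and malate dehydrogenase 2 (MDH2) regenerates oxaloacetate. Complex II, succinate dehydrogenase, oxidises succinate to fumarate and passes the electrons to ubiquinone. Mouse oocytes use pyruvate taken up from their surroundings as a main fuel, so this pathway is their main route to ATP. Transcription stops late in oocyte growth, and many maternal mRNAs are deadenylated, stored or degraded during maturation.

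Estimated counts summed to between 26575593 and 28847424 per library. Mff itself, at chr1:82724890-82752390, followed the labels: it stood at 750 ± 226 CPM (counts scaled to library size, SD, n = 4) in GV WT and 39.6 ± 7.34 (SD, n = 4) in GV CKO, and at 433 ± 220 (SD, n = 3) in ovulated WT and 43.0 ± 11.6 (SD, n = 3) in ovulated CKO. Oocyte markers summed to between 19630 and 32350 CPM in every library. Granulosa and cumulus markers summed to 51.7 to 116 CPM at the GV stage and 83.9 to 112 CPM after ovulation. Of the 18 in the GV table, Cyp19a1 was highest (32.4 to 56.9 CPM), Nr5a2 (4.86 to 15.4), Cyp11a1 (5.40 to 14.99), Inha (0.367 to 11.5) and Gja1 (0.325 to 7.85) followed, and Foxl2 stayed at or below 0.0753. The ovulated table holds 14 markers of the full list of 20, so the sums of the stages are not over the same genes. There Cyp19a1 (52.9 to 91.6 CPM) and Nr5a2 (10.1 to 17.8) were highest, followed by Col4a1 (3.93 to 8.44). Gja1 stayed at or below 0.110, and Inha was not listed. Markers of blood, immune and stromal cells summed to 23.7 to 45.9 CPM at the GV stage (14 genes listed) and 54.9 to 139 CPM after ovulation (9 genes listed), most of it from Pecam1. The share of counts in the 100 most abundant genes was 38.1% in GV WT 2, 35.2% in GV CKO 1 and 42.4% in GV CKO 2 against 48.2% to 51.1% in the other 5 GV libraries, and 25.0% (CKO 2) to 35.4% (WT 3) after ovulation. The method, given as SMART-SeqII, primes cDNA on the poly(A) tail, so the amount of an mRNA and the length of its tail cannot be told apart. CPM are relative to the rest of the library, and in such libraries less RNA per cell and fewer cells of a type cannot be told apart either.

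The 10 mRNAs differed widely in level. Levels between genes were compared per transcript length, as deposited FPKM, in which fragments are scaled by transcript length and by library size. In GV WT oocytes Sdhd, a membrane anchor of complex II, led with 217 ± 36.4 FPKM (SD, n = 4). Mdh2 followed with 141 ± 21.4 FPKM, then Sdhc, the other anchor, with 121 ± 45.7 and Cs with 118 ± 15.2, which did not differ beyond their spread. Sdha (52.7 ± 12.3 FPKM), Idh3a (49.9 ± 5.21), Sdhb (49.3 ± 22.4) and Idh3g (39.5 ± 10.9) had overlapping ranges. Dlst stood at 33.7 ± 4.45 FPKM, and Idh3b was lowest at 12.1 ± 1.90, with its highest library (13.8) below the lowest value of Dlst (27.6).

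In ovulated WT oocytes the order was different. Cs led with 115 ± 3.26 FPKM (SD, n = 3), ahead of Sdha (74.8 ± 8.66), Sdhc (56.5 ± 17.5) and Idh3a (51.6 ± 8.94). Below these 4 genes came a gap: Sdhd stood at 12.4 ± 1.81 FPKM, and Sdhb, Mdh2, Idh3g and Dlst lay between 2.32 and 3.72 FPKM. Idh3b was last again, at 0.273 ± 0.352 FPKM. The plot of levels by library shows the same split within each gene on the CPM scale.

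**Figure D1:**
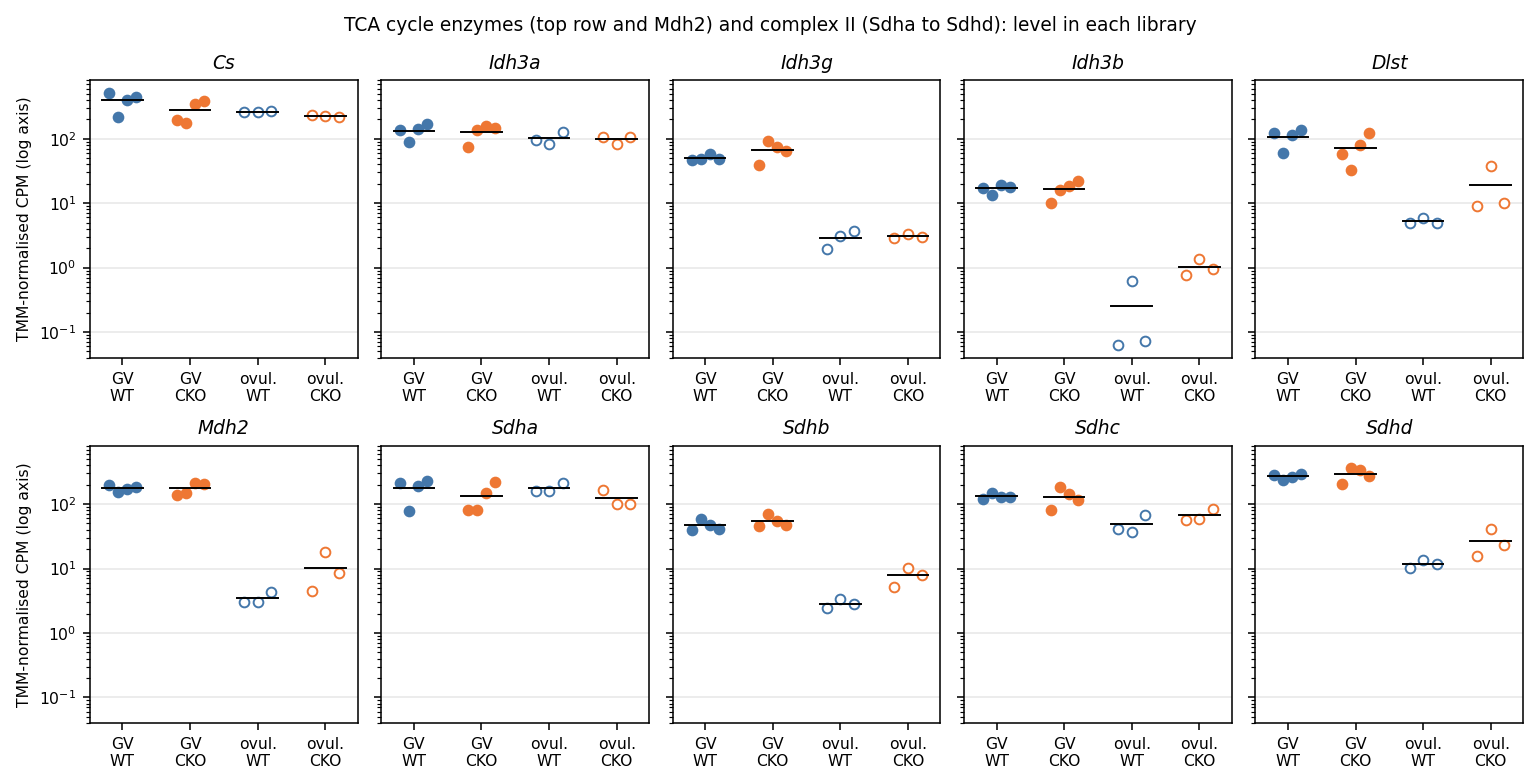
TMM-normalised CPM (log axis) of each of the 10 genes in each of the 14 libraries, grouped by stage and genotype. Each point is a library and each black line a group mean. Idh3g, Idh3b, Dlst, Mdh2, Sdhb and Sdhd sit lower after ovulation, while Cs, Idh3a and Sdha sit at similar heights in all 4 groups.

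Between the GV stage and ovulation, 7 of the 10 mRNAs fell in WT oocytes and none rose. In the fit over all genes, 36.2% of the 13199 genes tested were lower after ovulation at an adjusted p under 0.05 and 30.3% were higher (edgeR quasi-likelihood test, Benjamini-Hochberg adjustment). All 7 had every ovulated library below every GV library, which held for 37.3% of all genes tested. The median log2 change of the 10 genes was -4.08, beside -0.17 over all genes tested. Over the 9 other TCA cycle enzymes tested it was -1.11, so the size of the fall depends on which enzymes were chosen. In CKO oocytes 7 of the 10 fell, beside 31.2% of all genes lower and 23.2% higher. Of those 7, 5 had every ovulated library below every GV library, beside 30.6% of all genes. The median log2 change of the 10 genes in CKO was -2.37, beside -0.19 over all genes and -1.53 over the 9 other TCA cycle enzymes. The WT and CKO stage comparisons share no library. Stage is confounded with the deposited table and the collection, so those cannot be told apart.

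**Figure D2:**
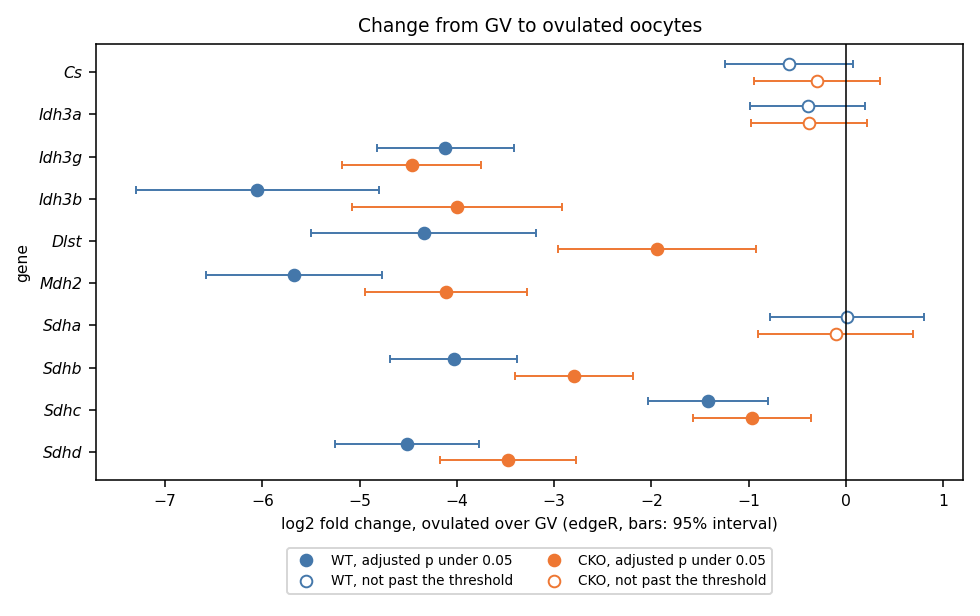
Log2 fold change of each gene from GV to ovulated oocytes (x axis) in WT and in CKO, from the edgeR fit of all 4 groups, with 95% intervals as bars and filled points for an adjusted p under 0.05. Mdh2, Idh3b, Idh3g, Dlst, Sdhb and Sdhd lie left of 0 in both genotypes, and the intervals of Cs, Idh3a and Sdha cross 0 in both.

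Cs, the enzyme of the entry step, lies at chr10:128337727-128362482 (NCBI Gene 12974). In GV WT libraries 1 to 4 it had 513, 215, 399 and 442 CPM. In GV CKO libraries 1 to 4 it had 193, 174, 341 and 388 CPM. In ovulated WT libraries 1 to 3 it had 256, 258 and 272 CPM, and in ovulated CKO 229, 226 and 215 CPM. Cs has a near copy, Csl, identical at 91.9% of 1522 aligned bases, and how reads shared by both were counted is not given. The GV values of Cs spread over a wider range than the ovulated ones, and the stages overlapped in both genotypes. The log2 change from GV to ovulation was -0.58 in WT (SE 0.31, 95% interval -1.24 to 0.07, edgeR adjusted p = 0.106) and -0.29 in CKO (SE 0.31, interval -0.94 to 0.36, adjusted p = 0.44). Without GV WT 2 the WT value passed the threshold at -0.79 (adjusted p = 0.0226), and without GV WT 2, CKO 1 and CKO 2 together it did so in WT (-0.80, adjusted p = 0.00107) and in CKO (-0.72, adjusted p = 0.00647).

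IDH3 is built of a catalytic subunit, IDH3A, and the subunits IDH3B and IDH3G, which are needed for its activity and allosteric control. Idh3a (chr9:54586511-54604662, NCBI Gene 67834) had 135, 88.9, 142 and 166 CPM in GV WT and 73.6, 138, 157 and 145 in GV CKO. After ovulation it had 93.9, 83.5 and 126 CPM in WT and 107, 82.0 and 107 in CKO. The groups overlapped, and the stage change was -0.39 in WT (interval -0.99 to 0.20, adjusted p = 0.226) and -0.38 in CKO (interval -0.97 to 0.21, adjusted p = 0.269). A fall of Idh3a passed the threshold in 2 of 21 alternative fits in WT and in 1 of 21 in CKO. None of these was a fit with 1 library left out.

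The mRNAs of both partner subunits fell in both genotypes. Idh3g (chrX:73778963-73786897, NCBI Gene 15929) had 47.3, 48.5, 58.8 and 47.6 CPM in GV WT and 38.7, 93.2, 74.7 and 63.5 in GV CKO, against 1.96, 3.13 and 3.63 in ovulated WT and 2.86, 3.33 and 2.97 in ovulated CKO. It fell by 4.12 on the log2 scale in WT (SE 0.34, adjusted p = 2.93e-08), or 17.4-fold, and fell by 4.46 in CKO (SE 0.34, adjusted p = 1.02e-07), or 22.1-fold. Idh3b (chr2:130279309-130284451, NCBI Gene 170718) had 17.1, 13.4, 19.2 and 18.0 CPM in GV WT and 9.97, 16.0, 18.6 and 22.1 in GV CKO. After ovulation it was close to the limit of detection in WT, with 2, 19 and 2 estimated counts (0.0621, 0.613 and 0.0712 CPM), and had 27, 54 and 32 counts (0.773, 1.37 and 0.961 CPM) in CKO. Its log2 change was -6.05 in WT (interval -7.31 to -4.80, adjusted p = 1.75e-07) and -4.00 in CKO (interval -5.08 to -2.92, adjusted p = 7.4e-06). The WT size rests on those few counts and reached -7.91 without ovulated WT 2, the library with 19.

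Dlst and Mdh2 encode enzymes of later steps. Dlst (chr12:85110822-85134091, NCBI Gene 78920), the succinyltransferase core of the 2-oxoglutarate dehydrogenase complex, had 121, 59.3, 113 and 134 CPM in GV WT and 57.2, 32.5, 79.1 and 121 in GV CKO. After ovulation it had 4.91, 5.94 and 4.95 CPM in WT and 9.08, 37.2 and 10.1 in CKO. Ovulated CKO 2, at 37.2 CPM, lay above GV CKO 2, so the stages overlapped in CKO but not in WT. Dlst fell by 4.34 in WT (SE 0.55, adjusted p = 2.73e-06) and fell by 1.94 in CKO (SE 0.48, adjusted p = 0.00259). Without ovulated CKO 2 it fell by 2.92 in CKO.

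Mdh2 (chr5:135778649-135790386, NCBI Gene 17448), the mitochondrial malate dehydrogenase, had the steepest fall in WT among the genes with more than a few counts after ovulation. It had 196, 152, 171 and 184 CPM in GV WT and 140, 150, 214 and 208 in GV CKO. After ovulation it had 2.98, 3.00 and 4.31 CPM in WT and 4.55, 17.9 and 8.47 in CKO. The stages were far apart in both genotypes: Mdh2 fell by 5.68 in WT (SE 0.43, adjusted p = 1.85e-08), or 51.2-fold, and fell by 4.11 in CKO (SE 0.40, adjusted p = 5.88e-07), or 17.3-fold.

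Complex II consists of the flavoprotein SDHA, the iron-sulphur protein SDHB, and the membrane anchors SDHC and SDHD that bind ubiquinone. Sdha (chr13:74322255-74350240, NCBI Gene 66945) had 210, 77.1, 190 and 227 CPM in GV WT and 80.0, 80.4, 149 and 220 in GV CKO. After ovulation it had 160, 159 and 212 CPM in WT and 168, 99.6 and 102 in CKO. On the CPM scale the groups overlapped throughout. Its stage change was 0.01 in WT (interval -0.78 to 0.80, adjusted p = 0.984) and -0.10 in CKO (interval -0.90 to 0.69, adjusted p = 0.833). Deposited FPKM of Sdha ranged from 34.6 to 61.2 in GV WT and from 68.5 to 84.7 in ovulated WT, without overlap. In CKO the FPKM ranges overlapped, at 27.4 to 67.2 (GV) and 47.4 to 79.3 (ovulated). The stage change was not tested on FPKM.

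Sdhb (chr4:140961271-140979198, NCBI Gene 67680) had 39.9, 57.8, 48.2 and 41.7 CPM in GV WT and 46.4, 69.2, 54.6 and 48.0 in GV CKO. After ovulation it had 2.45, 3.36 and 2.78 CPM in WT and 5.21, 10.3 and 8.02 in CKO. Every ovulated library was below every GV library. Sdhb fell by 4.03 in WT (SE 0.31, adjusted p = 1.98e-08), or 16.4-fold, and fell by 2.80 in CKO (SE 0.29, adjusted p = 1.03e-06), or 6.95-fold.

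The membrane anchors fell by different amounts, with 95% intervals in WT of -5.25 to -3.77 for Sdhd and -2.04 to -0.80 for Sdhc; the difference itself was not tested. Sdhd (chr9:50596340-50603849, NCBI Gene 66925) had 286, 239, 264 and 295 CPM in GV WT and 206, 359, 341 and 275 in GV CKO, and after ovulation 10.1, 13.7 and 11.9 in WT and 15.5, 41.2 and 23.0 in CKO. It fell by 4.51 in WT (SE 0.35, adjusted p = 2.08e-08), or 22.8-fold, and fell by 3.47 in CKO (SE 0.33, adjusted p = 5.51e-07), or 11.1-fold. Sdhc (chr1:171129157-171150640, NCBI Gene 66052) had 119, 150, 127 and 129 CPM in GV WT and 81.9, 182, 142 and 116 in GV CKO, and after ovulation 41.2, 36.9 and 68.9 in WT and 57.1, 59.1 and 84.1 in CKO. It fell by 1.42 in WT (SE 0.30, adjusted p = 0.00038) and fell by 0.97 in CKO (SE 0.29, adjusted p = 0.00906), where ovulated CKO 3 lay above GV CKO 1.

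Transcript length moved with the stage change over all genes, and the count and FPKM tables together give the length used for each gene. Among genes of up to 1.51 kb, 57.6% were lower and 15.2% higher after ovulation in WT, whereas among genes above 3.99 kb 15% were lower and 51% higher. Of the 10 genes, Sdhb (0.85 kb), Sdhc (0.95 kb), Mdh2 and Sdhd (1.05 kb each), Idh3g (1.10 kb) and Idh3b (1.17 kb) are short, and Idh3a (2.17 kb), Dlst (2.54 kb), Cs (2.57 kb) and Sdha (2.63 kb) are longer. With the length trend of each library removed, the fall of Sdhc was lost (0.03 in WT, adjusted p = 0.911, and 0.25 in CKO, adjusted p = 0.355). The falls of the other 6 were smaller but kept their calls, at -4.68 for Idh3b, -4.27 for Mdh2, -3.92 for Dlst, -3.08 for Sdhd, -2.75 for Idh3g and -2.46 for Sdhb in WT.

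Several subunit mRNAs of the same complex stood in different ratios at the 2 stages. The FPKM ratio of Sdhb to Sdha was 0.590, 2.36, 0.796 and 0.581 in GV WT and 1.79, 2.70, 1.15 and 0.687 in GV CKO. After ovulation it was 0.0464, 0.0643 and 0.0406 in WT and 0.0939, 0.318 and 0.244 in CKO. No ovulated library reached the lowest GV ratio, and all ovulated CKO libraries lay above all ovulated WT libraries. The ratio of Sdhc to Sdha ranged from 1.58 to 5.44 in GV WT and from 0.633 to 0.901 in ovulated WT, but in CKO the stages overlapped, at 1.49 to 6.35 and 0.925 to 2.29. The ratio of Sdhd to Sdhc ranged from 1.44 to 2.26 at the GV stage and from 0.155 to 0.627 after ovulation. Within IDH3, the ratio of Idh3g to Idh3a ranged from 0.573 to 1.35 at the GV stage and from 0.0411 to 0.0798 after ovulation. The ratio of Idh3b to Idh3a went from between 0.204 and 0.281 to at most 0.0305.

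**Figure D3:**
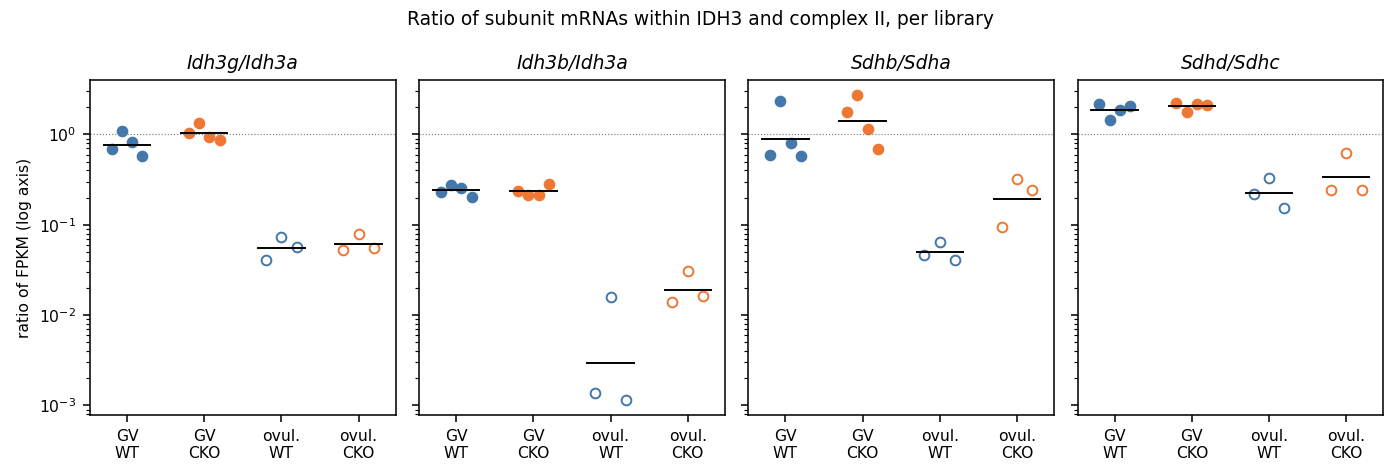
Ratio of deposited FPKM between 2 subunits of the same complex in each library (log axis), for IDH3 and for complex II. Points are libraries, black lines geometric means of a group, and the dotted line marks a ratio of 1. In every panel the ovulated libraries lie below the GV libraries.

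During maturation, cytoplasmic polyadenylation elements (CPEs) close to the poly(A) signal are known to mark mRNAs for tail elongation, so the 3′ ends were read from the transcript models. The final 100 bases of the principal GENCODE transcript (build GRCm38) were searched on the transcribed strand for the poly(A) signal AATAAA or ATTAAA, 10 to 40 bases from the end, and for the CPE letters TTTTAT or TTTTAAT. The signal was found in 8 of the 10 genes, beside 74.7% of 12854 genes with a transcript and a stage change. A CPE was found in 1 of the 10, Cs, beside 19.1% of all genes. For Sdhc the principal transcript (3171 bases) is far longer than the 946 bases implied by the deposited values, so the end searched may not be the measured one. The final 30 bases of the other 9 transcripts are shown to set the mRNAs past no threshold for stage (the first 3) beside those that fell, with signal letters and the CPE in capitals:
Cs: taaaaatAATAAAtgtTTTTATtaacaatg
Idh3a: ggttcacagtAATAAAgaacttaagaactg
Sdha: tgtaagccaAATAAAccctttctcaaagtt
Idh3g: acccagAATAAAgccacttctgttccagaa
Idh3b: atagtcAATAAAcaaaatacacacatacta
Dlst: tgaaaATTAAAgggcaaatgttctcaaaca
Mdh2: agtaaagcaggctctgattttctttttcaa
Sdhb: acagcatatgtAATAAAcatttaagataaa
Sdhd: ctctgaaaaaacaaaatttttaAATAAAat

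In the Cs transcript the CPE letters follow the signal and begin 14 bases from the end. The ends of Idh3a and Sdha hold a signal and no CPE letters, as do those of Idh3g, Idh3b, Dlst and Sdhb, which fell. The ends of Mdh2 and Sdhd, which also fell, hold no CPE letters and neither AATAAA nor ATTAAA in the window searched. The AATAAA of Sdhd lies nearer to the end than that window, and other forms of the signal were not searched. Over all genes, the median log2 stage change in WT was 0.91 for the 1976 genes with a signal and a CPE and -0.31 for the 7627 with a signal and no CPE. These matches are descriptions of letters in transcript models, and whether the oocytes used those ends was not tested.

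Other enzymes of the cycle and its surroundings were read from lists of related genes. Of 10 other TCA cycle enzymes 9 were tested, and 6 fell and 2 rose in WT, while 5 fell and 2 rose in CKO. Of all genes tested, 36.2% fell and 30.3% rose in WT, and 31.2% fell and 23.2% rose in CKO. Fh1, fumarase, fell by 2.40 in WT (adjusted p = 6.49e-06) and fell by 2.45 in CKO (adjusted p = 1.15e-05). Sucla2, a subunit of succinyl-CoA ligase, fell by 1.71 in CKO (adjusted p = 2.85e-05). The 2 that rose in WT, chosen for mention after their values were seen, were Ogdh (1.02) and Suclg2 (1.07).

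Of the 4 complex II assembly factors, 3 fell and 1 rose in each genotype, beside the same shares of all genes. Sdhaf2, which helps to attach FAD to SDHA, fell by 2.09 in WT (adjusted p = 2.68e-06) and fell by 2.09 in CKO (adjusted p = 6.03e-06). Sdhaf3, a maturation factor of SDHB, fell by 2.88 in WT (adjusted p = 6.78e-06) and fell by 2.07 in CKO (adjusted p = 0.000205). The factor that rose in WT, Sdhaf4 (1.34), was also chosen for mention after its value was seen.

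Among 11 cytosolic counterparts, shuttle enzymes and carriers, 5 fell and 3 rose in WT, and 3 fell and 1 rose in CKO. The shares of all genes were 36.2% lower and 30.3% higher in WT, and 31.2% lower and 23.2% higher in CKO. Whether lists this small differ from those shares was not tested. The citrate carrier Slc25a1 fell by 3.45 in WT (adjusted p = 4.36e-05) and the cytosolic aconitase Aco1 fell by 2.72 (adjusted p = 1.65e-06). In CKO the aspartate aminotransferase Got1 fell by 1.30 (adjusted p = 0.000284), and Acly, ATP-citrate lyase, rose by 1.09 (adjusted p = 0.00219). Of 5 genes that feed or drain the cycle, 2 fell and 2 rose in WT, and 1 fell and 2 rose in CKO, beside the same shares. Me2, the mitochondrial malic enzyme, fell by 1.40 in WT (adjusted p = 5.24e-05) and fell by 1.41 in CKO (adjusted p = 9.81e-05). Glud1, glutamate dehydrogenase, rose by 1.29 in CKO (adjusted p = 0.00247).

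The loss of Mff was then examined at each stage. In ovulated oocytes 3 of the 10 mRNAs, Dlst, Mdh2 and Sdhb, were higher in CKO than in WT and none was lower. In the same fit 6.44% of the 12010 genes tested were higher and 7.84% were called in either direction. The median log2 difference of the 10 genes was 0.83, beside 0.00 over all genes. The median was 0.1 over the 9 other TCA cycle enzymes tested and 0.23 over the 4 complex II assembly factors. Over all genes of up to 1.56 kb it was 0.36. On CPM the CKO libraries lay above all WT libraries for 5 genes (Idh3b, Dlst, Mdh2, Sdhb and Sdhd; 15.8% of all genes) and below them for 1 gene (Cs; 12.7% of all genes). The members that were higher are mRNAs that had fallen after the GV stage, and the ovulated WT libraries enter both comparisons.

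Dlst was higher by 1.87 on the log2 scale (SE 0.48, edgeR adjusted p = 0.0258), a 3.66-fold difference. Its 3 CKO libraries had 9.08, 37.2 and 10.1 CPM, against 4.91 to 5.94 in WT, so the size of the difference rests on CKO 2. Mdh2 was higher by 1.62 (SE 0.47, adjusted p = 0.0448), or 3.06-fold, with CKO 1 (4.55 CPM) just above the highest WT library (4.31). Sdhb was higher by 1.49 (SE 0.40, adjusted p = 0.032), or 2.81-fold, with 5.21 CPM in its lowest CKO library and 3.36 in the highest WT library. Even so, these levels stayed far below the GV range for Mdh2 and Sdhb.

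Of the others, Sdhd was 1.20 higher (SE 0.35, adjusted p = 0.0503) and narrowly missed the threshold. Idh3b was 2.09 higher (SE 0.91, adjusted p = 0.177) on its few counts. Sdhc differed by 0.47 (interval -0.15 to 1.10, adjusted p = 0.365), Idh3g by 0.11 (interval -0.82 to 1.03, adjusted p = 0.917) and Idh3a by -0.01 (interval -0.55 to 0.53, adjusted p = 0.989). Cs differed by -0.20 (interval -0.67 to 0.28, adjusted p = 0.654), although its CKO libraries (215 to 229 CPM) all lay below its WT libraries (256 to 272 CPM). On deposited FPKM the Cs ranges overlapped, at 104.7 to 131.3 in CKO and 111.4 to 117.9 in WT. Sdha differed by -0.50 (interval -1.07 to 0.08, adjusted p = 0.288). For Idh3g, which also fell with stage, a difference between genotypes was not detectable within this wide interval.

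These 3 calls depended on single libraries: none was made without ovulated WT 1, WT 2, WT 3 or CKO 2, 1 (Dlst) without CKO 3, and 4 without CKO 1. Without CKO 2, the library with the lowest share in its 100 most abundant genes, the differences were 0.91 for Dlst (adjusted p = 0.21), 0.96 for Mdh2 (adjusted p = 0.299) and 1.25 for Sdhb (adjusted p = 0.131). Short transcripts were called higher more often, at 16.2% of genes of up to 1.56 kb and 5.01% of those from 1.56 to 2.61 kb, and with the length trend removed Dlst kept its call (1.86, adjusted p = 0.0341) while Mdh2 (1.24, adjusted p = 0.0765) and Sdhb (0.93, adjusted p = 0.117) did not. The part of library shape and transcript length in these differences was not tested further.

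**Figure D4:**
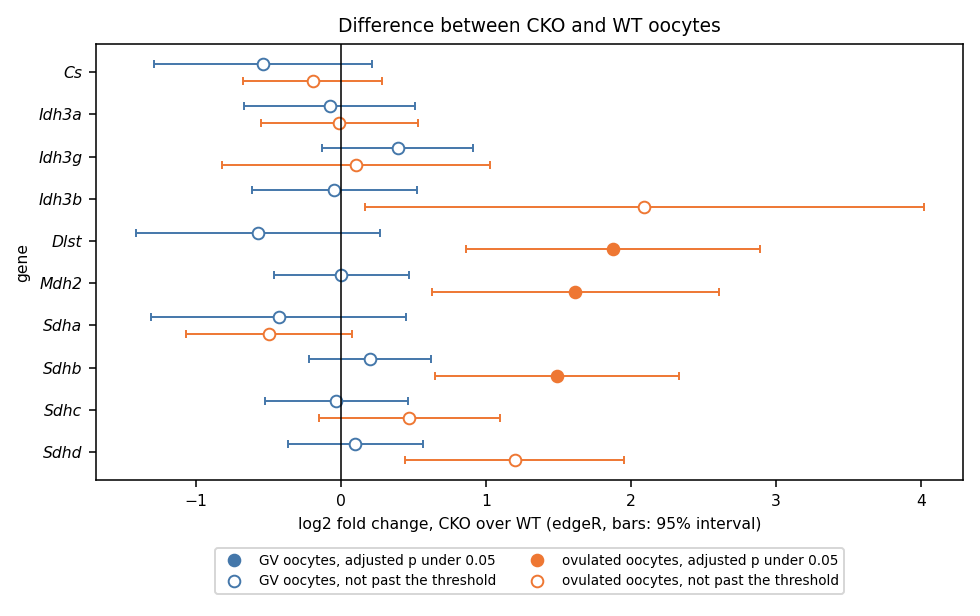
Log2 fold change of each gene between CKO and WT (x axis) in GV and in ovulated oocytes, from edgeR fits of each stage, with 95% intervals as bars and filled points for an adjusted p under 0.05. Dlst, Mdh2 and Sdhb are filled in ovulated oocytes, at 1.87, 1.62 and 1.49, and no gene is filled in GV oocytes.

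Of the cytosolic counterparts, shuttle enzymes and carriers, 10 were tested in ovulated oocytes, and 1 was higher and 2 were lower in CKO. Over all genes tested, 6.44% were higher and 7.84% were called in either direction. Aco1 was higher by 1.68 (SE 0.38, adjusted p = 0.0126), at 15.7 ± 6.44 CPM (SD, n = 3) against 5.04 ± 1.24 (SD, n = 3), and lost its call without CKO 2 (1.30, adjusted p = 0.0765) or WT 3 (1.50, adjusted p = 0.0643). Got1 and the aspartate-glutamate carrier Slc25a13, both of the malate-aspartate shuttle, were lower. The rest of the list was not called: Slc25a1 (1.82), Got2 (0.15), Acly (0), Mdh1 (-0.18), Slc25a11 (-0.47), Idh1 (-0.67) and Slc25a12 (-0.91). At the GV stage Got1 (-0.88, edgeR adjusted p = 0.454) and Slc25a13 (-0.95, adjusted p = 0.455) were also lower in CKO, past no threshold. In ovulated oocytes Got1 was lower in CKO than in WT by 1.56 (SE 0.28, edgeR adjusted p = 0.00331), at 12.1 ± 1.34 against 36.6 ± 5.77 CPM. Slc25a13 was lower there by 1.61 (SE 0.32, adjusted p = 0.00657), at 8.68 ± 2.43 against 27.1 ± 4.61 CPM. Both kept their calls whichever ovulated library was left out, but on unfiltered log2 FPKM Slc25a13 lost its call (-1.42, adjusted p = 0.0761). No assembly factor and no gene of the anaplerosis list was called.

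The genes with the most similar pattern over the 4 group means were found for the 3 called members among 8983 genes, as the root mean square distance of log2 CPM after centring. Nearest to Dlst were Rpn2 (0.098), Trmt1 (0.112) and Dctn2 (0.112). Nearest to Mdh2 were Drg1 (0.02), Eef1akmt4 (0.074) and Nol12 (0.076), and Drg1 went from 47.3 and 49.5 CPM in GV WT and CKO to 0.924 and 3.23 in ovulated WT and CKO. Nearest to Sdhb were Amn1 (0.057), Igbp1 (0.06) and Idnk (0.061). With 4 group means, small distances arise among so many genes, and they are given as a description.

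At the GV stage none of the 10 mRNAs differed between CKO and WT at the threshold, beside 0.0163% of the 12298 genes tested. The groups overlapped for all 10 (4.59% of all genes did not overlap), the lowest adjusted p was 0.763, and 0 of 10 had an unadjusted p under 0.05 by edgeR. DESeq2 and the other alternatives called 0 of 10 as well. The differences furthest from 0 were those of Dlst (-0.57, interval -1.42 to 0.27), Cs (-0.54, interval -1.29 to 0.22), Sdha (-0.43, interval -1.31 to 0.45) and Idh3g (0.39, interval -0.13 to 0.91). The intervals of the other 6 genes lay between -0.67 and 0.62. No gene of the related lists was called.

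Within the GV stage 3 genes were low on TMM-normalised CPM in the same 3 libraries, 1 of them WT and 2 CKO. Cs had 174 to 215 CPM in WT 2, CKO 1 and CKO 2 and 341 to 513 in the other 5 libraries. Dlst had 32.5 to 59.3 CPM in the same 3 libraries and 79.1 to 134 in the other 5, and Sdha 77.1 to 80.4 against 149 to 227. On deposited FPKM only Sdha kept this split. GV CKO 3 then lay below WT 2 and CKO 1 for Cs (96.0 against 97.9 and 96.2) and for Dlst (23.4 against 27.6 and 28.4). Cs, Dlst and Sdha are the 3 longest of the 10 transcripts, and the 3 libraries are those with the low share of counts in the most abundant genes. The same 3 libraries had the highest sums of granulosa and cumulus markers, 98.8 to 116 CPM of the library total against 51.7 to 78.0 in the other 5. The part of these features in the spread was not tested.

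An interaction term asked whether the loss of Mff acted on these mRNAs to the same extent before and after maturation. By edgeR 0 of 10 passed, beside 3.26% of the 13199 genes tested, and 5 had an unadjusted p under 0.05. Dlst came closest, with a difference of differences of 2.40 (SE 0.66, adjusted p = 0.0535), followed by Sdhb (1.24, SE 0.38, adjusted p = 0.0847), Mdh2 (1.57, SE 0.48, adjusted p = 0.0886), Idh3b (2.06, SE 0.70, adjusted p = 0.133) and Sdhd (1.04, SE 0.41, adjusted p = 0.215). DESeq2 called 4 (Dlst, Sdhb, Mdh2 and Idh3b), edgeR without a filter or with another scaling called Dlst alone, and without ovulated CKO 1 edgeR called 4. A difference in genotype effect between the stages was not established for any of the 10 by the edgeR test. Of the cytosolic counterparts, shuttle enzymes and carriers, 1 of 11 passed the threshold in the interaction, Aco1 (1.68, SE 0.42, adjusted p = 0.0368), but the call was lost in 9 of 14 fits with 1 library left out, where the adjusted p ranged from 0.0108 to 0.152 (without ovulated CKO 2), and with the replicate block (adjusted p = 0.0513).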

How the data were processed

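RNA-seq of oocytes was analysed in 14 libraries, made with SMART-SeqII per the labels' protocols, which name no molecular identifiers. The authors deposited estimated counts and FPKM per gene, in a GV table (18194 genes) and an ovulated table (16509 genes), per the file headers. Of the count values above 0, 17.6% and 18.3% were not whole, and counts were rounded. The submitters' processing notes give mm10, and no aligner or counter is given in the sources used here. Coordinates are RefSeq GRCm38.p6 and 3′ ends GENCODE M21 (GRCm38).

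The edgeR 4.0.16 quasi-likelihood test (R 4.3.3; filterByExpr, TMM, Benjamini-Hochberg over all genes tested, threshold 0.05) was run per stage for genotype, and on all 14 libraries with 4 group means, over genes in both tables, for stage and interaction. It was tested on simulated data. CPM are TMM-normalised from the joint fit, and FPKM are the deposited values. Alternatives used DESeq2 1.42.0, limma 3.58.1 (log2 of FPKM plus 0.1 or 1, FPKM filter 1), other scaling and filters, length trends, and libraries left out. Fits on FPKM were run for genotype at each stage, and not for stage or interaction.

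All 10 genes are named. From the related lists, called genes are named, up to 3 per list for genotype and interaction and 2 for stage, by smallest p. For the list with shuttle enzymes, uncalled genes are named as well in ovulated oocytes. Some results that this rule would name are not reported here. Members and lists were chosen with earlier results of these data known. Same-numbered WT and CKO libraries correlated at -0.34 to 0.45 (GV) and 0.02 to 0.20 (ovulated), so numbers were not taken as pairs. Among the 10, Idh3b had the fewest estimated counts after ovulation, 2 to 54 per library. The lowest value of the other genes was 63, for Idh3g in ovulated WT 1. The part of counting error in the spread was not tested.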

Additional observations from a re-analysis of the deposited data

Results flagged for a closer look

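Idh3g in GV WT 3 stood at 58.8 CPM, apart from the other 3 GV WT libraries, of which the nearest had 48.5 CPM. Its gap was 0.896 of the range of the group, above the limit for 4 samples. Chance puts about 1 in 20 groups past that limit, and every member was looked at in the 2 GV groups. On deposited FPKM, Idh3g had 30.1, 52.7, 44.2 and 31.1 in GV WT 1, 2, 3 and 4, so WT 3 was not the highest there.

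The genotype difference of Aco1, which is outside the 10 genes, was larger after ovulation than at the GV stage by 1.68 on the log2 scale in the interaction test. Without ovulated CKO 2 it was 1.30, and it was past no threshold in 9 of 14 fits with 1 library left out.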

How the results depend on the processing

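The stage falls of Idh3b, Idh3g, Dlst, Mdh2, Sdhb and Sdhd kept their direction and call in both genotypes under every alternative run, whereas that of Sdhc was lost with the length trend removed (0.031 in WT, 0.25 in CKO). The calls in ovulated oocytes and the interaction depended on the libraries and tools used, and depth limits Idh3b after ovulation. Causes were not tested. Where a value below changed sign it was past no threshold in either form, Sdhc under the length trend excepted.

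In ovulated oocytes the number of the 10 genes called (3) became 0 with WT 3 and CKO 2 left out, 5 in the joint fit, 1 with the length trend removed, 6 with limma quality weights, 1 with either log2 FPKM pseudocount after filtering and 0 without a filter. It was 0 to 4 with 1 library left out. For the interaction (0) it became 4 with DESeq2, 2 with quality weights, and 1 each with median-of-ratios scaling, no filter, the length trend removed or the replicate block, and 0 to 4 with 1 library left out. The replicate number as a block, which the data did not show to pair libraries, called 1630 genes in ovulated oocytes and 262 for the interaction, turned Mdh2 at the GV stage to -0.015 and Idh3a after ovulation to 0.007, and could not be fitted for the stage comparisons. The block called Dlst, Mdh2, Sdhb and Sdhd in ovulated oocytes.

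Over all genes, the 2 calls at the GV stage became 4 with no filter, the length trend removed or the joint fit, 17 with the share of the 100 most abundant genes as a covariate, 57 with DESeq2, 63 with 3 libraries left out, 121 with quality weights, and 2 to 5 with 1 library left out. The 942 calls in ovulated oocytes became 235 with 2 libraries left out, 1593 with DESeq2, 1595 in the joint fit, 1993 with quality weights, 182 with unfiltered FPKM, and 341 to 1652 with 1 library left out. The 430 interaction calls became 157 with 2 ovulated and 229 with 3 GV libraries left out, 889 with DESeq2, 671 with quality weights, and 129 to 1006 with 1 library left out. Of the ovulated calls 82.2% were higher in CKO, 66.7% with the length trend removed, 71.3% with DESeq2 and 65% with quality weights. Removing the length trend moved the median of all genes from -0.17 to 0.12 (WT stage) and from -0.19 to 0.09 (CKO stage), and median-of-ratios scaling moved the latter to -0.08.

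These values changed sign. For GV CKO against WT, Idh3a, Idh3b and Sdhc became 0.014, 0.152 and 0.031 with 3 libraries left out, and 0.052, 0.027 and 0.062 on log2 FPKM with a pseudocount of 0.1 (with or without a filter), with 0.026 for Idh3b and 0.061 for Sdhc at a pseudocount of 1. Idh3b and Sdhc were 0.022 and 0.08 with quality weights, Idh3a and Idh3b 0.128 and 0.095 with the covariate, Idh3a and Mdh2 0.046 and -0.038 with the length trend removed, and Mdh2 -0.004 with no filter. Leaving out 1 library gave -0.1 to 0.114 for Mdh2, -0.193 to 0.117 for Sdhc, -0.224 to 0.128 for Idh3b and -0.212 to 0.108 for Idh3a. In ovulated oocytes Idh3a became 0.319 with 2 libraries left out, 0.033 with the length trend removed, 0.148 with quality weights and 0.2 or 0.196 on log2 FPKM, Idh3g became -0.159 with the length trend removed, and Cs 0.009 on log2 FPKM. Leaving out 1 library gave -0.112 to 0.317 for Idh3g and -0.15 to 0.198 for Idh3a. For the WT stage change, Sdha became -0.145 and -0.253 with 2 ovulated or 3 GV libraries left out and -0.262 with quality weights, and Idh3a 0.223 with the length trend removed. For the CKO stage change, Sdha became 0.112 with 2 ovulated libraries left out, 0.012 with DESeq2 or median-of-ratios scaling, 0.052 with no filter and 0.219 with the length trend removed, which also gave 0.049 for Cs and 0.188 for Idh3a. Leaving out 1 library gave -0.24 to 0.156 (WT) and -0.399 to 0.256 (CKO) for Sdha. For the interaction Sdha became 0.257 with 2 ovulated libraries left out, and Idh3a -0.065 with 3 GV libraries left out and -0.035 with the length trend removed. Leaving out 1 library gave -0.402 to 0.247 for Sdha and -0.178 to 0.304 for Idh3a.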
